A study of Mus musculus with 15 samples.

Results

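The regions described here were the genomic loci of 25, 26 or 27 nt that lay outside annotated repeats in small RNA libraries from mouse testis. A locus was 1 genomic interval on 1 strand, and its count was the number of reads of exactly that length assigned to it. Loci were taken by the length of the interval and by the absence of a repeat name, with no use of their counts. There were 1500168 such loci among the 8128951 found in the 15 libraries, which was 18.5% of all loci and 22.4% of the 6703889 outside repeats. Of these, 402101 were 25 nt, 524462 were 26 nt and 573605 were 27 nt. This is the length usually given to piRNAs bound by MILI, but no library held RNA recovered with MILI, and the loci are therefore called by their length.

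RNA came from the whole testes of 8-week-old C57Bl/6 male mice, and each of the 5 groups had 3 libraries. CMC, a carbodiimide that binds pseudouridine (Ψ) and stops reverse transcriptase, was applied to the RNA of the CMC-treated libraries and left out of the mock-treated ones. RNA bound by a Ψ antibody (Ψ-IP) was sequenced beside the input of the precipitation and the flow-through, the RNA that the antibody left unbound. All groups shared strain, sex, age, tissue and a gel purification of small RNA, whereas the CMC set and the Ψ-IP set were built with different library kits, so tests were made within a set only, and levels given from both sets side by side also differ in kit. In whole tissue, fewer cells of a type and less RNA per cell cannot be told apart. The labels do not say whether libraries of a group came from separate animals, so p-values measure the spread between these libraries, which may be technical.

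Libraries held between 11575705 and 58399368 counts, of which 1267129 to 9733970 lay at 25–27-nt loci. Most of the loci were rare: 531195 had a single count over all libraries and 669490 (44.6%) were found in 1 library, whereas 34419 were found in all 15. The 7713 most abundant loci held more counts than all the others together. Loci with more than 20 counts in a set were tested, which left 122164 in the Ψ-IP set and 122549 in the CMC set, or 184753 in either. Between libraries of a group, counts at abundant loci differed by more than sampling noise (chi-square per degree of freedom 1.5 to 5.79), and the highest values were those of flow-through replicate 1 against the other two libraries of its group.

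piRNAs are small RNAs of the germline that are bound by PIWI proteins and cut from long single-stranded transcripts of piRNA clusters. In mouse, MILI holds shorter piRNAs than MIWI, which appears at the pachytene stage of meiosis, and both prefer an RNA that begins with uridine. The 5′ end of a piRNA is set when the precursor is cut, whereas the 3′ end is trimmed to the length that the PIWI protein covers, so that 1 precursor end can give RNAs of several lengths. In the ping-pong cycle, a PIWI protein slices a target across from the bases near the middle of its guide, and the new 5′ end then overlaps that of the guide by a fixed number of bases.

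Sequences are given as DNA, 5′ to 3′, from the GENCODE transcripts and RefSeq promoters of GRCm38, the same assembly as the mm10 of the counts. The first set shows the member in capitals and, in lower case, the further bases of the most abundant 29–31-nt locus with the same 5′ end. The sites were chosen because the results below turn on them: abundant loci, loci whose long partner behaved differently, and loci that changed in the Ψ-IP or CMC comparisons.
chr17:27342441-27342466, plus strand, at an exon edge of Gm10505: TAGAATTTCCGGTCTGGTCACACTCAttc
chr17:27358220-27358245, plus strand, exon of Gm49794: TAGCGGACACCTGTGCTTCATTCTGTgga
chr17:27358895-27358920, plus strand, exon of Gm49794: TGGAAGCAAAGGAAGACACTCTGAGTctat
chr17:27362742-27362766, plus strand, exon of Gm49794: TATCATGAGTGCGGAAACTTGTAGCggtgt
chr7:73817086-73817111, plus strand, exon of Gm21269: TAAACACCCCTAGGAGCCTCTGCAGTgcca
chr15:83354667-83354693, minus strand, exon of 1700001L05Rik: TGAATTAGATTAGAAGAACAGTTGGCTgga
chr17:27343718-27343743, plus strand, exon of Gm10505: TAATCCTCGGCTTCCTGGCACTTCCGgagc
chr3:34867947-34867973, plus strand, exon of Gm21388: TGTGATTTTTGTGTGTATGAGATTTGAatc
chr15:83355337-83355363, minus strand, exon of 1700001L05Rik: CTTCTCTTGGGACTGTAGACTGGTTGC
All but the last begin with T, and for the last the member alone is shown. The second set shows 2 loci on opposite strands of an exon of CT025671.4, with the 10 bases at which they pair in capitals.
chr17:66194675-66194699, minus strand, 25 nt: TCATAGTCGGgggcatctgaagaga
chr17:66194690-66194719, plus strand, 30 nt: CCGACTATGAttctgaagttaataaagcac

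The loci were spread over the same kinds of annotation as loci of 29 to 31 nt. Of the 184753 with more than 20 counts in a set, 62.8% lay outside annotated genes, 17.3% in introns and 13.7% in exons on the sense strand, and 3.46% and 2.75% in introns and exons on the antisense strand. The same places held 61%, 17.5%, 13.9%, 4.07% and 3.52% of 29–31-nt loci. Nearly every count (99.98%) fell inside the 647 piRNA clusters with which the authors had intersected their reads, and 640 of these held at least 1 locus. A single cluster at chr17:27269742-27371971, which spans Gm49793, Gm10505 and Gm49794, held 19.4% of all 25–27-nt counts. It was followed by chr9:67687024-67773986 with 5.61% and chr2:92515043-92616945 with 5.58%. The top 10 clusters together held 57.9% and the top 50 held 94.2%.

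In exons, where the reference gave the bases of 31295 of these 184753 loci (16.9%), 82.8% began with T and these held 90.7% of the counts, against 84.2% and 86.6% for 29–31-nt loci. The tenth base was A in 24.5% of 25–27-nt and 29.1% of 29–31-nt loci. A sequence was not available for most loci, so base composition describes loci in exons and promoters only.

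No separate peak stood at 25 to 27 nt when counts outside repeats were summed by length. The mean share rose from each length to the next between 24 and 30 nt in every group (the plot of counts by length). In the mock-treated libraries 25-nt loci held 4.58% ± 0.26 (SD, n = 3) of these counts, 26-nt loci 7.39% ± 0.21 and 27-nt loci 7.74% ± 0.016. The 28-nt loci held 8.99% ± 0.17 and the 30-nt loci 25.5% ± 0.67. Input libraries, made with the other kit, gave 2.52% ± 0.086, 5.21% ± 0.12 and 6.23% ± 0.11 at 25, 26 and 27 nt.

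**Figure D1:**
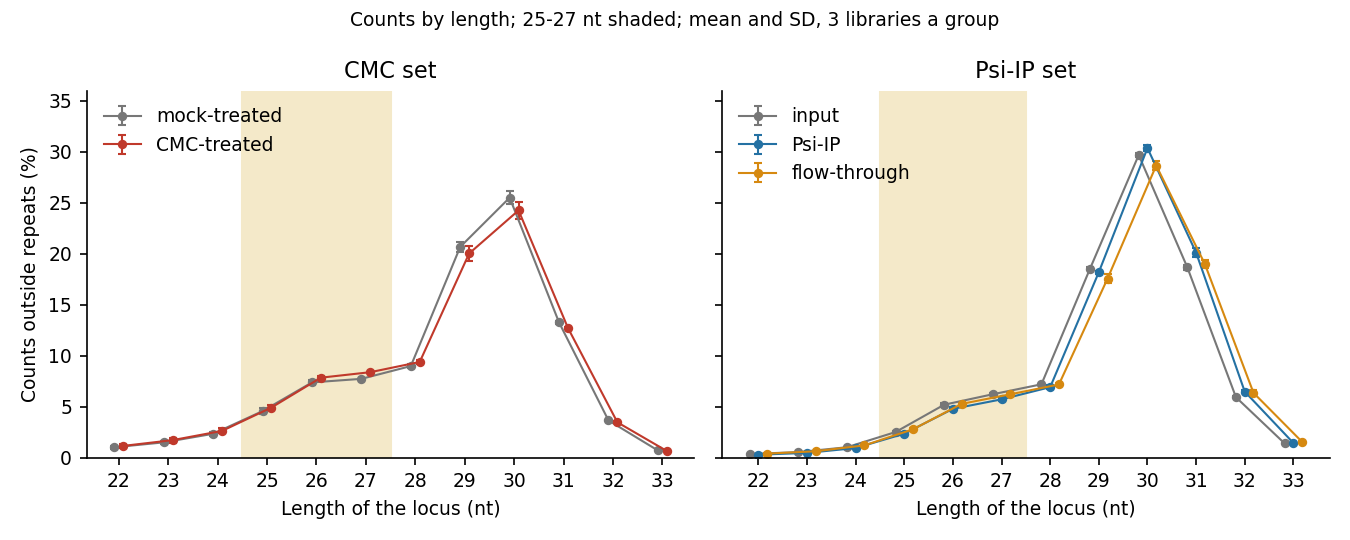
Share of the counts outside repeats (vertical axis, %) at loci of 22 to 33 nt (horizontal axis), as mean and SD of 3 libraries a group, with 25 to 27 nt shaded. Each curve climbs to 30 nt with a shoulder rather than a peak in the shaded range, and the CMC-treated curve lies above the mock-treated one there (8.39% against 7.74% at 27 nt).

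Taken 5′ end by 5′ end, a minority of sites did have their most frequent length in this range. Among the 39371 5′ ends outside repeats with more than 1000 counts, 29, 30 or 31 nt was the most frequent length at 30302 (77.0%) and 25, 26 or 27 nt at 5144 (13.1%). The single lengths 26 nt (5.42%) and 28 nt (5.16%) were close to each other, with 27 nt (4.99%) between 25 nt (2.65%) and both. At the 5144 sites, 26-nt RNA made up 23.7% of the counts on average, and 28, 29 and 30 nt gave 8.42%, 8.87% and 9.25%. At the 30302 sites, 30-nt RNA made up 33.1% and 26-nt RNA 4.42%. The main peak of each mean profile was fixed by grouping the sites on their most frequent length. Apart from it, the profile of the shorter sites held a second, lower rise at 30 nt, whereas that of the longer sites did not rise again below 29 nt.

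**Figure D2:**
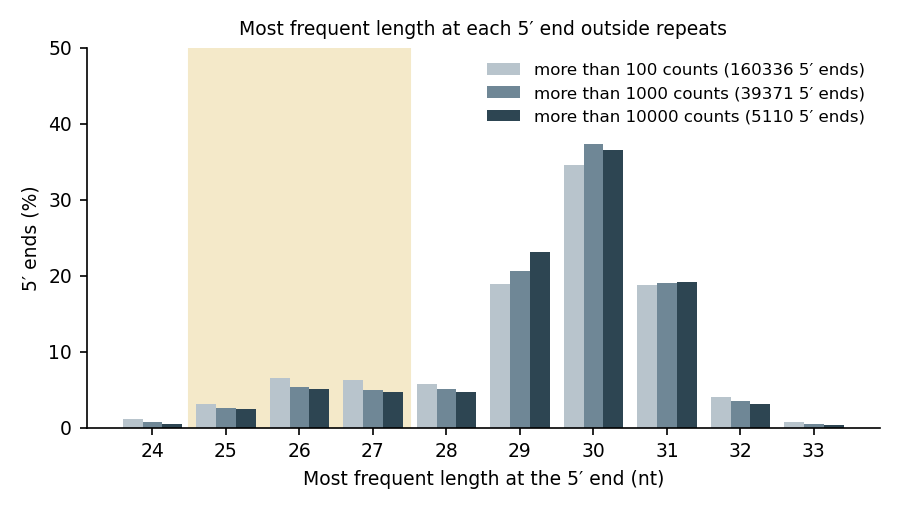
Share of 5′ ends (vertical axis, %) by their most frequent length (horizontal axis, nt), for 5′ ends with more than 100, 1000 and 10000 counts over all libraries, with 25 to 27 nt shaded. At each minimum the highest bar is 30 nt (34.6%, 37.3% and 36.6%), and 26 nt is above 25 nt.

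Most 25–27-nt loci shared their 5′ end with a 29–31-nt locus on the same strand. The same first base was found for 1169138 loci (77.9%), and these held 98.7% of the 25–27-nt counts. At 674370 of them a locus of each of 29, 30 and 31 nt began at that base. By length, 77.97% of 25-nt, 76.9% of 26-nt and 78.8% of 27-nt loci shared. Sharing was not particular to this length, since 79.8% of 24-nt, 82.5% of 28-nt and 87.4% of 32-nt loci did so as well, with 59.0% at 19 nt. The 5′ end position itself stood out from its surroundings. Of 111469 25–27-nt 5′ ends with more than 20 counts, 78.2% had a 29–31-nt 5′ end of more than 20 counts at the same base, against 17.7% to 38.3% at each distance of 1 to 20 bases on either side. In the other direction, 42.0% of the 29–31-nt 5′ ends had a 25–27-nt one at the same base.

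**Figure D3:**
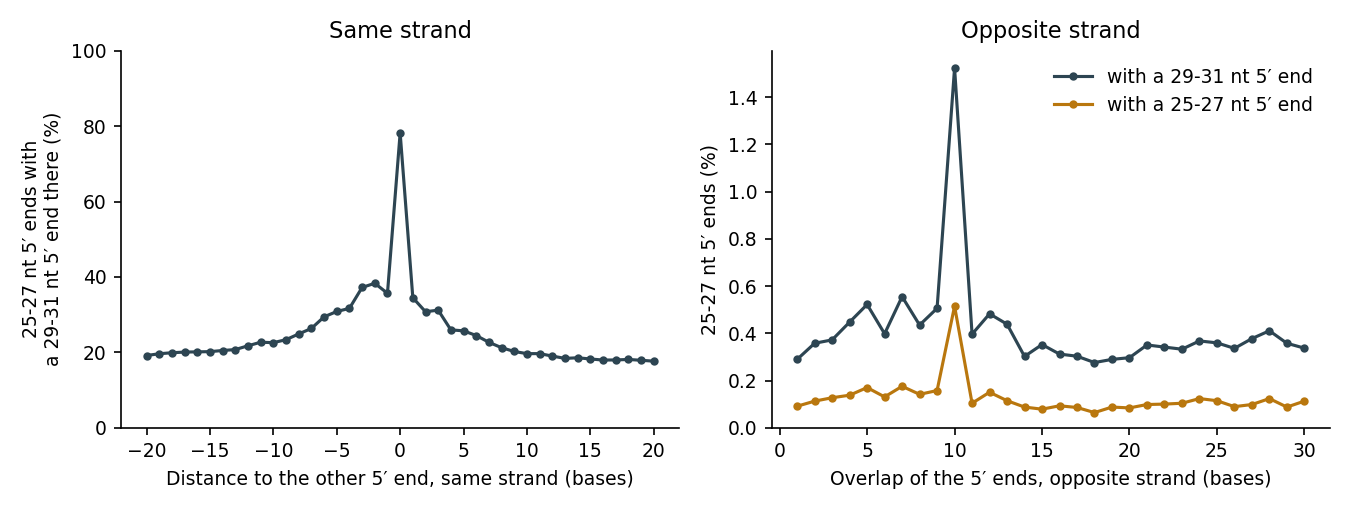
Left, share of 25–27-nt 5′ ends (vertical axis, %) with a 29–31-nt 5′ end at each distance on the same strand (horizontal axis, bases), which is 78.2% at 0. Right, share with a 5′ end on the opposite strand at each overlap of the 2 5′ ends (horizontal axis, bases), which reaches 1.52% for 29–31-nt and 0.515% for 25–27-nt ends at an overlap of 10.

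The 331030 loci that did not share were rare ones: they held 793115 counts in all, their median was 1 count against 3 for those that shared, and 2361 of them passed 20 counts. The most abundant was a 25-nt locus at chr5:113328793-113328817 (minus strand, outside annotated genes) with 961 counts, of which the mock-treated libraries held 74, 108 and 81 and the CMC-treated ones 164, 154 and 160. Another, of 26 nt in an exon of 1700001L05Rik at chr15:83355720-83355745, had 661 counts. A 26-nt locus at chr2:92574398-92574423 (plus strand, outside annotated genes) had 0 counts in each of the 6 libraries of the CMC set and 24 to 202 counts in those of the Ψ-IP set. Each of these 3 5′ ends also carried RNA shorter than 25 nt, with 383, 294 and 114 counts.

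Per library, 99.1% to 99.2% of the 25–27-nt counts in the CMC set and 97.2% to 98.1% in the Ψ-IP set lay at loci that shared. Ψ-IP exceeded flow-through by 0.513 percentage points and input by 0.175, with no overlap between libraries. Where the 29–31-nt locus had to have more than 20 counts, the differences were 2.002 points against flow-through, again with no overlap, and 0.725 against input, with overlap. Where a 29–31-nt locus had to be present in the same library, both turned negative (-0.179 and -2.83), and 2 of the 3 Ψ-IP libraries were the least deep of all.

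Overlap with RNA of the opposite strand was most frequent at 10 bases. A 29–31-nt 5′ end on the opposite strand that overlapped by 10 bases was found for 1.52% of the 25–27-nt 5′ ends, against 0.276% to 0.555% at each other overlap from 1 to 30. A 25–27-nt 5′ end lay there for 0.515%, against 0.0646% to 0.176%. By counts, 4.67% to 4.75% of the 25–27-nt RNA in mock-treated, 4.78% to 4.82% in CMC-treated, 4.25% to 4.39% in input, 4.19% to 4.37% in Ψ-IP and 3.92% to 4.13% in flow-through libraries stood at such 5′ ends. Overlaps of 9 and 11 bases gave 0.354% to 0.526% in the 15 libraries. Loci in exons with an opposite 5′ end at 10 bases had A as the tenth base in 42.0% (733 loci with a sequence), against 24.1% of the 30562 without. At an overlap of 10 bases, the tenth base lies across from the first base of the opposite RNA. The share of A is therefore not independent of that first base. In the pair printed above, the 25-nt locus had 4.34 ± 0.37 (SD, n = 3) CPM (counts scaled to the same library size) in mock-treated libraries and its 30-nt opposite 4.84 ± 0.011. In flow-through the 25-nt locus had 6.91 ± 1.3 CPM and the 30-nt locus 0.114 ± 0.12.

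The share of counts held by 25–27-nt loci is relative to that of the other lengths. It was lower in Ψ-IP than in input and in flow-through. Of the counts outside repeats, 25–27-nt loci held 13.8%, 13.7% and 14.3% in the input libraries, 13.4%, 13.0% and 12.4% in Ψ-IP and 14.3%, 14.8% and 13.7% in flow-through. Every Ψ-IP library lay below every input and every flow-through library, by means of 1.06 and 1.41 percentage points, whereas flow-through and input overlapped (0.348 points apart, exact two-sided permutation p = 0.4). With each locus counted once in place of its reads, 2 differences turned sign, to 1.28 points for Ψ-IP against flow-through and -2.68 for flow-through against input. With 3 libraries against 3 the smallest exact p is 0.1, which both Ψ-IP differences reached. Of the lengths from 22 to 33 nt, those higher in all Ψ-IP than in all input libraries were 30 nt (30.4% against 29.7%), 31 nt (20.1% against 18.7%) and 32 nt (6.49% against 5.94%). The fall was not particular to 25 to 27 nt. The 28-nt (6.93% against 7.21%) and 29-nt (18.2% against 18.5%) shares were also lower with no overlap, whereas at 25 nt Ψ-IP and input overlapped.

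CMC treatment went the other way. The 25–27-nt share was 19.4%, 19.5% and 20.3% in the mock-treated libraries and 20.9%, 20.97% and 21.7% in the CMC-treated libraries, a difference of 1.47 points with no overlap (exact permutation p = 0.1). The gap was clearest at 27 nt, where the mock-treated libraries had 7.74% ± 0.016 and the CMC-treated ones 8.39% ± 0.028 (SD, n = 3), and at 25 nt the groups overlapped. Libraries of the same replicate number, which were not treated as pairs, differed at 25 nt by 0.387, 0.321 and 0.344 points. The share of 31-nt loci was lower with CMC in every library (12.7% against 13.3%). The ratio of 25–27-nt to 29–31-nt counts was 0.332 ± 0.016 in mock-treated, 0.372 ± 0.019 in CMC-treated, 0.209 ± 0.0059 in input, 0.188 ± 0.0090 in Ψ-IP and 0.219 ± 0.010 in flow-through libraries.

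Single loci were then compared with edgeR's quasi-likelihood test over all loci of any length (Benjamini-Hochberg adjusted p under 0.01). In Ψ-IP against input 122164 members were tested, of which 4226 (3.46%) were called higher and 12671 (10.4%) lower. Of all 686863 loci 16.1% were called, 5.45% higher and 10.7% lower. The median log2 fold change was -0.19 for the members and -0.10 for all loci. Loci of 29–31 nt had 6.93% higher and 11.5% lower. Leaving out input replicate 1, 2 or 3 moved the 4226 to 1650, 2566 and 1830, and leaving out input replicate 1 or 3 moved the 12671 to 6992 and 7888. The share called higher grew with length, from 2.98% at 25 nt through 3.52% and 3.63% at 26 and 27 nt to 7.61% at 31 nt (the plot of called loci by length). With an average of 300 or more counts, 24.9% of 297 were higher and 30% lower, close to the 28.5% and 29.7% of 29–31-nt loci with as many counts. The classes were further apart below that. At 100 to 300 counts 19.6% were higher and 28.8% lower, against 24.9% and 28.9% of 29–31-nt loci. At 30 to 100 counts the members had 14.3% and 27.1%, against 19.4% and 25.1%.

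**Figure D4:**
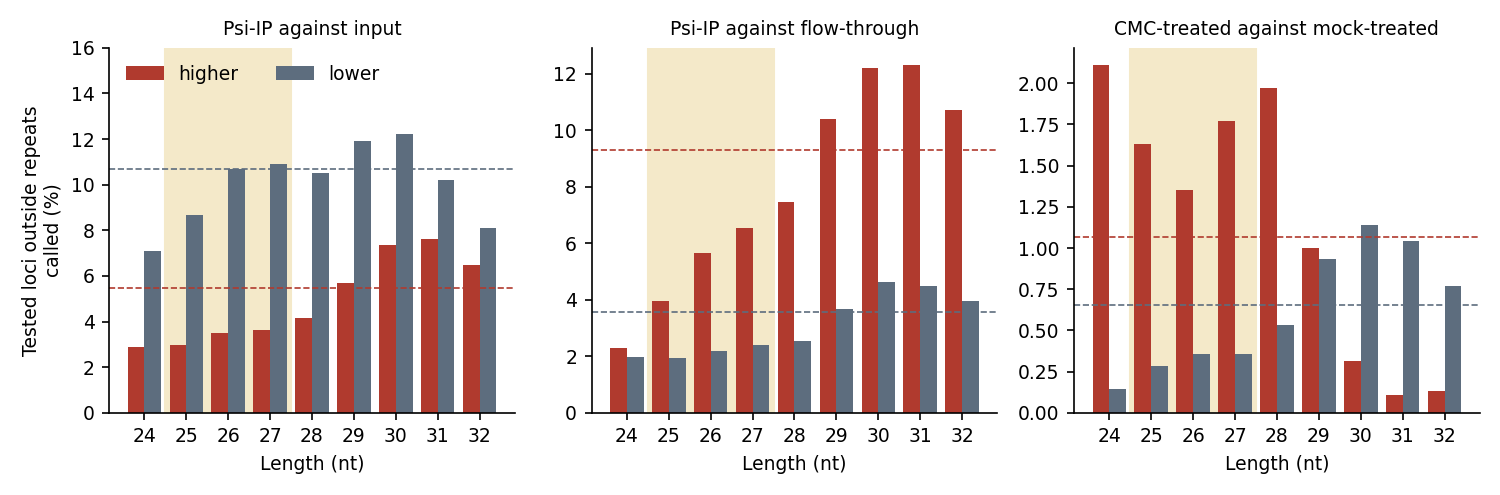
Share of the tested loci outside repeats (vertical axis, %) called higher (red) and lower (grey) at each length (horizontal axis, nt), with 25 to 27 nt shaded and dashed lines for all loci of any length. The vertical scales differ between panels. In CMC-treated against mock-treated libraries the red bars at 25 to 27 nt (1.35% to 1.77%) stand above their line and the grey ones (0.287% to 0.354%) below theirs. The red bars at 24 nt (2.11%) and 28 nt (1.97%) are higher still.

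The largest rises in Ψ-IP against input among abundant members lay at 4 sites. The 27-nt locus at chr3:124401254-124401280 in an untranslated exon of 1700006A11Rik had 4.91, 5.45 and 5.18 CPM in input, 21.3, 15.95 and 24.1 in Ψ-IP and 1.44, 1.96 and 1.60 in flow-through, so that Ψ-IP was highest with no overlap (log2 fold change 2.03 ± 0.24 (SE) over input and 3.88 ± 0.34 over flow-through, edgeR adjusted p = 3.66e-14 and 2.23e-27). Its 29-nt partner rose with it (2.54 ± 0.24 over input). At chr9:67722120-67722146 (minus strand, outside annotated genes) input had 5.89, 3.99 and 7.38 CPM and Ψ-IP 25.3, 23.2 and 26.4 (2.16 ± 0.24). The others were chr10:66696963-66696989 (2.10 ± 0.26) and chr17:27307519-27307545 (2.04 ± 0.24), both on the minus strand and outside annotated genes. At the last of these flow-through (22.2 ± 6.6 CPM) overlapped Ψ-IP (23.9 ± 3.0 CPM, SD, n = 3).

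The largest falls were deeper. At chr14:24084236-24084261 (plus strand, outside annotated genes) the input libraries had 12.2, 10.9 and 15.3 CPM and the Ψ-IP libraries 0.607, 0.642 and 0.720, so that the fold was -4.21 ± 0.33 on the log2 scale (edgeR adjusted p = 1.69e-32). Its 30-nt partner went from 6.97 ± 1.9 to 4.81 ± 1.1 CPM (SD, n = 3) and was not called (-0.48 ± 0.26). The next largest was at chr18:67054171-67054197 (-4.03 ± 0.28). The falls at chr7:69910406-69910432 and chr7:69913546-69913572 (-3.89 each, plus strand, outside annotated genes) were accompanied by their 30-nt partners (-3.22 and -3.79). In the printed set, chr17:27362742-27362766 in Gm49794 fell from 15.8 ± 0.55 CPM in input to 1.16 ± 0.72 in Ψ-IP (-3.65 ± 0.30). Flow-through was also low, at 3.62 ± 1.4 CPM, and Ψ-IP was not called against it (-1.30 ± 0.44). The 30-nt RNA with 5 more bases did not fall, with 4.84 ± 1.5 CPM in input and 5.62 ± 0.87 in Ψ-IP. The reverse was seen at chr17:27358895-27358920 of the same gene, where the 26-nt RNA had 44.6 ± 9.4 and 45.5 ± 8.5 CPM and the 30-nt RNA fell from 11.8 ± 0.95 to 2.31 ± 0.72 (-2.27 ± 0.28).

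Against flow-through the balance of calls was different. Of the 122164 members 6951 (5.69%) rose and 2724 (2.23%) fell in Ψ-IP. Of all loci 12.9% were called, 9.3% higher and 3.56% lower. The median log2 fold change was -0.08, and 29–31-nt loci had 11.7% higher and 4.3% lower. Without Ψ-IP replicate 2 the 6951 became 4385, and without Ψ-IP replicate 1, 2 or 3 the 2724 became 1653, 1577 and 1815. Among the 326 members with an average of 300 or more counts the order of the directions turned, with 22.7% higher and 28.5% lower, and this was not so for 29–31-nt loci (35.1% and 22.9%).

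Among the 4 largest rises of abundant members, the highest in level was the 27-nt locus at chr15:74638502-74638528 (plus strand, outside annotated genes). It had 112, 164 and 126 CPM in Ψ-IP, 4.38, 6.62 and 3.42 in flow-through and 38.2, 47.1 and 38.8 in input (log2 fold change over flow-through 5.07 ± 0.30, edgeR adjusted p = 8.64e-60). The Ψ-IP libraries were above all others. Its 30-nt partner had 37.4 ± 5.3 CPM in Ψ-IP and 44.5 ± 14 in flow-through, was not called between them (0.03 ± 0.26) and fell against input (88.02 ± 12 CPM, -1.19 ± 0.21). The other rises, at chr5:149805777-149805803 in an intron of Gm21221 (5.43 ± 0.41), chr17:27340482-27340508 in an intron of Gm10505 (5.31 ± 0.37) and chr12:98421173-98421198 outside genes (5.16 ± 0.37), had flow-through means under 1 CPM. In exons, the printed locus of 1700001L05Rik at chr15:83354667-83354693 had 19.5, 17.4 and 15.7 CPM in Ψ-IP against 1.44, 1.90 and 2.59 in flow-through (3.43 ± 0.34).

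Loci that were richer in flow-through included chr2:92542041-92542065 (plus strand, outside annotated genes), with 23.1, 33.04 and 24.9 CPM in flow-through, 0.954, 1.74 and 3.79 in Ψ-IP and 2.65, 3.20 and 4.53 in input (-3.29 ± 0.33 in Ψ-IP against flow-through). Falls of like size were found at chr17:27328526-27328550 in an intron of Gm10505 (-3.30 ± 0.37), chr17:27316533-27316558 in an intron of Gm49793 (-3.26 ± 0.35) and chr5:113338654-113338679 outside annotated genes (-3.22 ± 0.38). The 29-nt partner of the first stood at 244 ± 56 CPM in flow-through and 48.2 ± 10 in Ψ-IP (SD, n = 3). The printed locus of Gm10505 at chr17:27343718-27343743 had 18.6, 10.7 and 7.30 CPM in flow-through, all above the 0.694, 1.65 and 2.06 of Ψ-IP (-2.76 ± 0.36). At chr7:73817086-73817111 in Gm21269 the order was flow-through (231 ± 40 CPM), Ψ-IP (67.5 ± 8.4) and input (26.5 ± 4.3), with no overlap between them, so that Ψ-IP was called higher than input (1.39 ± 0.21) and lower than flow-through (-1.51 ± 0.24).

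With CMC, 1941 of 122549 members (1.58%) rose and 412 (0.336%) fell against mock-treated libraries. Of all 556583 loci 1.73% were called, 1.07% higher and 0.654% lower. The 29–31-nt loci had the opposite order, 0.488% higher and 1.05% lower. Rises were not particular to the members, since 2.11% of 24-nt and 1.97% of 28-nt loci were called higher. The share called lower was 0.145% at 24 nt, 0.287% to 0.354% at 25 to 27 nt, and 0.933%, 1.14% and 1.04% at 29, 30 and 31 nt. The median log2 fold change of the members was 0.08 and that of all loci 0.0025. The members' median was 0.12 at an average under 10 counts and -0.03 at 300 or more. At those levels 0.82% and 4.71% rose, and 0.00166% and 3.69% fell. Of 29–31-nt loci with 300 or more counts, 0.873% rose and 9.16% fell. Without mock-treated replicate 2 the 1941 became 1039, and without mock-treated replicate 1, 2 or 3 or CMC-treated replicate 2 the 412 became 264, 113, 185 and 149. Falls were shallow, with 113 of the 412 at least 2-fold, against 1525 of the 1941 rises. This was much the same over all loci, where 1081 of 3640 falls and 4838 of 5979 rises were at least 2-fold. Of the members called higher, 66 had 0 counts in the 3 mock-treated libraries together and 303 had at most 3.

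The largest rises were near absent from mock-treated libraries. The 27-nt loci at chr2:151255081-151255107 and chr2:151408648-151408674 (minus strand, the second in an intron of Gm14152) had 0.105 ± 0.071 and 0.144 ± 0.059 CPM without CMC and 20.9 ± 3.7 and 22.04 ± 4.1 CPM with it (log2 fold changes 7.48 ± 0.25 and 7.28 ± 0.24). The CMC-treated libraries held 755, 545 and 616 counts at the first and 806, 545 and 679 at the second, and whether reads were shared between them was not tested. At chr1:92996748-92996773 (minus strand) CMC-treated libraries had 7.39, 8.46 and 13.4 CPM and mock-treated ones at most 0.0911 (7.32 ± 0.32). At chr7:52909520-52909545 (plus strand) they had 9.26, 8.29 and 10.7 CPM against at most 0.0911 (6.95 ± 0.27), and the 29-nt partner rose with it (4.48 ± 0.35). In exons, the printed locus of 1700001L05Rik at chr15:83355337-83355363, which begins with C, had 0.547, 0.537 and 0.384 CPM without CMC and 5.46, 6.83 and 7.73 with it (3.74 ± 0.21).

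The largest falls came with falls of the longer RNA. At chr4:94305954-94305979 in an intron of Gm12648 mock-treated libraries had 4.77, 5.06 and 5.18 CPM and CMC-treated ones 2.02, 1.54 and 1.74 (-1.48 ± 0.17, edgeR adjusted p = 5.06e-08), and the 29-nt RNA at the same 5′ end, more abundant at 158 ± 14 CPM, changed by -1.14 ± 0.13. Falls at chr5:114844730-114844755 (-1.36 ± 0.18), chr5:114819271-114819296 in 1500011B03Rik (-1.36 ± 0.17) and chr5:113355327-113355352 (-1.32 ± 0.18) came with falls of their 29-nt partners of -1.09, -1.08 and -1.35. All 4 members were also higher in Ψ-IP than in flow-through, by log2 fold changes of 3.59, 3.93, 5.46 and 2.05, and none was called against input. The printed locus of Gm21388 at chr3:34867947-34867973, with 14 T among its 27 bases, had 11.7, 11.1 and 10.9 CPM without and 6.41, 4.79 and 4.78 with CMC (-1.06 ± 0.14). In the Ψ-IP set it was rare, with 0.952 ± 0.30 CPM in input and 0.138 ± 0.049 in Ψ-IP (-2.67 ± 0.69), whereas its 30-nt partner was not called against input (0.24 ± 0.21) and was higher than flow-through (2.11 ± 0.28).

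The CMC and Ψ-IP sets shared no library and could be set side by side. Of the 412 members lower with CMC, 340 were tested in the Ψ-IP set, and 159 (46.8%) of these were higher and 0 lower in Ψ-IP than in flow-through. Among all 59960 members tested in both sets 7.08% were higher and 2.85% lower. These groups were not matched for counts, and calls grew with counts. Of members averaging under 10 counts 2.84% were called higher than flow-through, and of those with 300 or more 22.7%. Read from the other list, 159 of the 4247 members higher in Ψ-IP than flow-through (3.74%) were lower with CMC, against 0.567% of the 59960. With DESeq2 the count was 112 of 238, with 0 lower. Leaving out mock-treated replicate 1, 2 or 3 gave 99 of 231, 54 of 94 and 87 of 156, leaving out CMC-treated replicate 2 or 3 gave 72 of 125 and 98 of 231, and leaving out CMC-treated replicate 1 gave 236 of 523 with 3 lower. Against input, 41 (12.1%) of the 340 were higher and 20 (5.88%) lower. Without mock-treated replicate 1, 2 or 3 the 41 became 25, 13 and 18, and without CMC-treated replicate 1, 2 or 3 it became 94, 14 and 24. The 20 became 13 and 5 without mock-treated replicate 1 or 2, and 36 and 10 without CMC-treated replicate 1 or 2. Without input replicate 1 or 3 the 41 became 17 and 23, and without input replicate 1, 2 or 3 the 20 became 12, 13 and 11. Of the 866 tested members higher with CMC, 35 (4.04%) were higher and 164 (18.9%) lower in Ψ-IP than in input, where 4.76% and 11.9% of the 59960 were called. Against flow-through 58 (6.7%) of the 866 were higher and 34 (3.93%) lower, near the 7.08% and 2.85% of all members. Without Ψ-IP replicate 1 or 2 the 58 became 38 and 33 and the 34 became 21 and 22. The 34 became 22 without flow-through replicate 2, 15 and 21 without mock-treated replicate 2 or 3, and 19 without CMC-treated replicate 2. Without mock-treated replicate 2 the 164 became 86 and the 35 became 16, and the 35 became 22 without mock-treated replicate 3 or Ψ-IP replicate 3. The 164 became 95 without input replicate 1 or 3, and the 35 became 12, 20 and 9 without input replicate 1, 2 and 3. These overlaps were picked after the values were seen.

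Loci in exons that were called in these comparisons differed in their share of T. T made up 29.05% of the bases of all 31295 members with a sequence. It made up 49.1% in the 83 members lower with CMC that had a sequence, 27.4% in the 278 that were higher and 29.1% in those not called. In Ψ-IP against flow-through it was 40.3% for the 963 members called higher, 20.6% for the 484 called lower and 28.2% for the rest, or 10.6, 5.42 and 7.40 T per member. Against input the shares were close to each other, at 30.4% for members higher, 29.5% for members lower and 28.5% for those not called. The first base was T in 96.4% of the members lower with CMC and 66.2% of those higher. T is the DNA letter for uridine, the base from which Ψ is made, and an antibody or CMC signal from uridine that was not modified was not tested. A sequence was at hand for 13.1% to 20.1% of the called groups, so these values hold for loci in exons and promoters only.

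Whether a member changed together with the longer RNA of its 5′ end was asked next. Of the members higher in Ψ-IP than input that had a tested 29–31-nt partner (3958), the most abundant partner was also higher for 54.6% and lower for 1.41%. Of 11623 lower members, 54.1% had a lower partner. Members that were not called had a higher partner in 15.4% and a lower one in 12.4%. Against flow-through the partner was higher for 57.6% of 6636 higher members and lower for 48.6% of 2475 lower ones, with 12.9% and 10.3% for members not called. With CMC 59.9% of 394 lower members had a lower partner and 0 a higher one, and 10.8% of 1553 higher members had a higher partner. Members not called with CMC had a lower partner in 2.22% and a higher one in 0.553%.

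With counts summed over each length class at a 5′ end, changes of the classes were correlated. At 5′ ends with an average of at least 100 counts in both, Pearson's r between the log2 fold changes was 0.70 over 2201 5′ ends for Ψ-IP against input, 0.78 over 2088 against flow-through and 0.69 over 6646 with CMC. The sign was the same at 75.2%, 80.3% and 76.4%. These are descriptions across 5′ ends, which share libraries and are not independent replicates. The spread of the difference between the classes (SD 0.88, 0.85 and 0.28 on the log2 scale) was below that of either class.

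**Figure D5:**
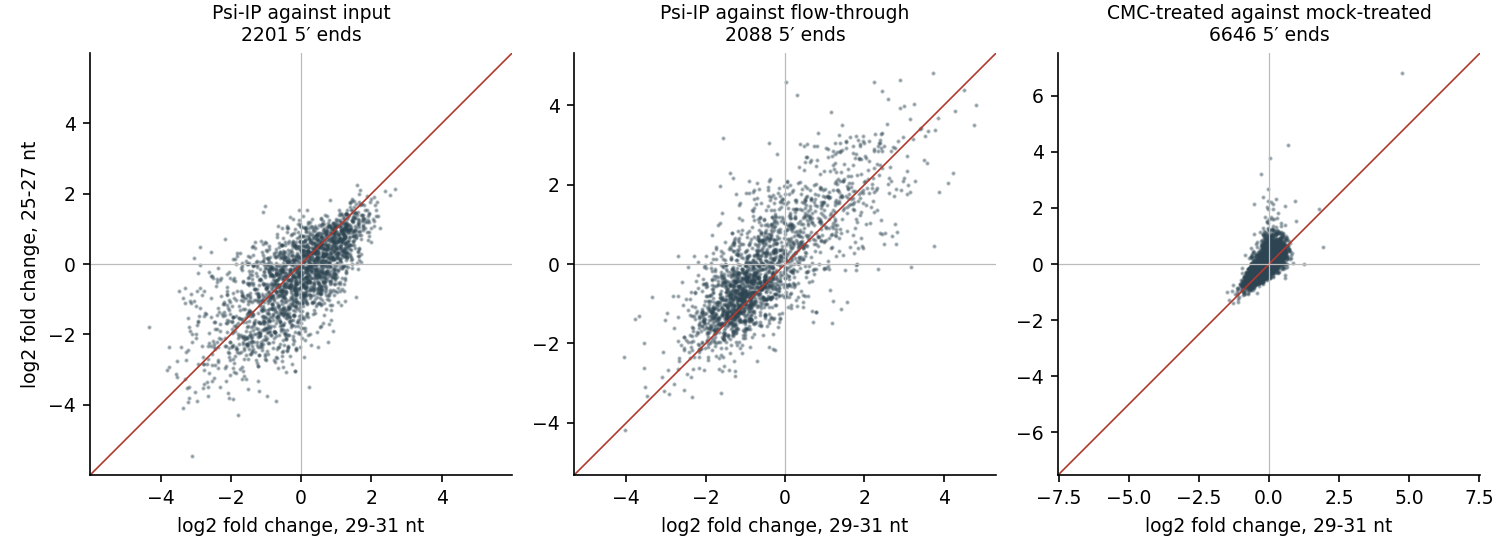
Log2 fold change of 25–27-nt counts (vertical axis) against that of 29–31-nt counts (horizontal axis) at 5′ ends with an average of at least 100 counts in both classes. Each point is 1 5′ end, red lines mark equal change, and the scales differ between panels: points follow the line (r = 0.70, 0.78 and 0.69), with a few 5′ ends above it in the CMC panel.

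Over the 115608 5′ ends with more than 20 counts in each class, 25–27-nt RNA made up a median of 27.8% of the counts of both classes (10th to 90th percentile 6.24% to 68.6%) and exceeded 29–31-nt RNA at 27967 (24.2%). A change of this ratio was tested as an interaction of length class and group. In Ψ-IP against input 4.69% of 75664 5′ ends were called, 1602 (2.12%) with a higher and 1949 (2.58%) with a lower ratio. These fits scaled each class on its own. With 1 size per library for both, 918 were higher and 3355 lower, and all 918 and 1949 were called under both scalings. Leaving out input replicate 1 or 3 moved the 1602 to 756 and 862 and the 1949 to 985 and 1019, and leaving out Ψ-IP replicate 3 moved the 1602 to 1014. Against flow-through 2.33% were called, 1395 (1.84%) higher and 371 (0.49%) lower, or 723 and 387 with 1 size per library. Without Ψ-IP replicate 1, 2 or 3 or flow-through replicate 1 the 1395 became 859, 336, 208 and 504, and without Ψ-IP replicate 1 or flow-through replicate 1 the 371 became 220 and 974. With CMC 1.41% of 61132 were called, 668 (1.09%) higher and 196 (0.321%) lower, or 914 and 62. Without mock-treated replicate 2 the 668 became 432, and without mock-treated replicate 2 or 3 or CMC-treated replicate 2 the 196 became 95, 105 and 86. The median log2 change of the plain ratio was -0.37 against input, 0.23 against flow-through and 0.11 with CMC. With each class scaled on its own it was -0.08, 0.42 and -0.03, so that the sign with CMC depended on the scaling. The ratio of the summed counts changed by -0.16, -0.22 and 0.16, so that against flow-through, under both scalings, the typical 5′ end and the sum had opposite signs.

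At 4 of the named 5′ ends the ratio changed as follows. At chr4:94331500 (minus strand, intron of Gm12648) 25–27-nt RNA made up 47.6%, 54.5% and 54.3% of both classes in input, 90.8%, 91.7% and 92.9% in Ψ-IP and 30.2%, 30.2% and 28.3% in flow-through, with no overlap between these groups. The ratio changed by 3.68 ± 0.21 (SE, log2) against input and 4.94 ± 0.30 against flow-through. At chr15:74638502 (plus strand), the 5′ end of a locus described above, the shares were 37.8% ± 2.4 in input, 78.3% ± 2.8 in Ψ-IP and 13.6% ± 3.5 in flow-through (SD, n = 3). The opposite order was found at chr17:27360319 (plus strand, exon of Gm49794), where they were 53.2%, 48.2% and 49.8% in input, 11.1%, 13.6% and 9.95% in Ψ-IP and 46.3%, 59.8% and 58.8% in flow-through. At chr14:24090419 (plus strand, outside genes) the share fell from 8.03% ± 1.3 in input to 0.624% ± 0.078 in Ψ-IP, and flow-through, at 2.33% ± 0.80, was also below input. These 4 calls held under both scalings.

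With CMC the largest rises of the ratio were at chr5:113341405, chr7:52908186 and chr6:127799204 (all plus strand, outside annotated genes). At the first, 25–27-nt RNA went from 37.9%, 37.3% and 38.8% without CMC to 86.2%, 89.7% and 90.8% with it (3.53 ± 0.14). At the others the means went from 16.4% ± 1.7 to 70.0% ± 3.0 and from 18.5% ± 1.0 to 71.5% ± 5.2 (SD, n = 3). Falls were smaller: 79.5% ± 1.7 to 61.6% ± 1.9 at chr11:103436285 and 42.0% ± 6.0 to 22.5% ± 2.3 at chr12:98400353.

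Clusters differed far more from each other in their share of 25–27-nt RNA than groups did. In the 176 clusters that averaged 1000 or more counts of both classes per library, the share was averaged over the 5 groups of both kits. This mean ran from 6.33% to 70.1% with a median of 16.8%. The median was 20.7% in mock-treated libraries (7.45% to 73.3%) and, with the other kit, 13.5% in input (4.34% to 68.8%). The highest were a cluster at chr17:27546488-27580957 around Hmga1 and Nudt3 (70.1%), one at chr10:81369946-81437478 around Fzr1 and Nfic (67.3%) and one at chr4:135282111-135322514 at Srrm1 (58.0%). The lowest by this mean were chr3:20453086-20503368 (6.33%), chr3:28854080-28883370 (6.86%) and chr9:88600031-88631664 (7.40%). Within groups the order differed. The second of these was lowest in input (4.34%), Ψ-IP (2.92%) and flow-through (2.79%), and other clusters were lowest in mock-treated (7.45%) and CMC-treated (8.45%) libraries. The large cluster at chr17:27269742-27371971 had 44.9% ± 1.1 in mock-treated, 47.2% ± 1.4 in CMC-treated, 39.9% ± 0.46 in input, 37.9% ± 1.1 in Ψ-IP and 39.1% ± 0.92 in flow-through libraries (SD, n = 3).

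Within clusters, the share followed the direction of the whole libraries. It was lower in Ψ-IP than in input in 154 of the 176, with all 3 Ψ-IP libraries below all 3 input libraries in 100 and above in 3. It was lower in Ψ-IP than in flow-through in 124, with 73 fully below and 12 fully above, and higher with CMC in 168, with 104 fully above and 1 fully below. The direction of the interaction test depended on the scaling. With each class scaled on its own, 9.88% of 587 clusters were called in Ψ-IP against input, 56 (9.54%) higher and 2 (0.341%) lower, and with 1 size per library 1 was higher and 76 lower. Against flow-through 3.92% were called, 18 (3.07%) higher and 5 (0.852%) lower, or 0 and 21 with 1 size per library. With CMC 2.61% of 614 were called, 5 (0.814%) higher and 11 (1.79%) lower, or 35 and 0. Leaving out 1 library also moved these counts. Against input, the 56 became 37 without input replicate 2, and the 2 became 1 without Ψ-IP replicate 3 and 0 without any input replicate. Against flow-through, the 18 became 8, 7 and 9 without Ψ-IP replicate 1, Ψ-IP replicate 2 and flow-through replicate 2, and the 5 became 2 without any Ψ-IP replicate. With CMC, the 5 became 13 and 3 without CMC-treated replicate 1 and 3, and the 11 became 4 without CMC-treated replicate 3 or mock-treated replicate 1.

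A few clusters were called in the same direction under both scalings. At chr11:107991332-108001163, within Prkca and Mir7223, 25–27-nt RNA rose from 8.59%, 9.76% and 9.15% in input to 14.7%, 14.4% and 13.1% in Ψ-IP, and flow-through had 13.4% ± 0.33 (SD, n = 3). At chr6:88808009-88828994, at Mgll, it fell from 28.7%, 26.4% and 28.5% in input to 16.9%, 17.2% and 17.5% in Ψ-IP. Flow-through was also low there, at 19.2% ± 0.76, and Ψ-IP was not called against it. At chr4:123885213-123897590, outside annotated genes, it was 4.13% ± 0.28 in Ψ-IP and 8.13% ± 0.94 in flow-through. With CMC it rose at chr19:12766115-12770535, at Zfp91 (19.4% ± 0.86 to 28.8% ± 3.7), and at chr7:52906440-52921728, which holds 2 of the sites above (11.2% ± 0.28 to 14.7% ± 1.4).

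The 6 most abundant members showed the range of patterns. The 26-nt locus at chr17:27318603-27318628 (minus strand, at an exon edge of Gm49793) had 602 ± 35 CPM without and 607 ± 27 with CMC, 213 ± 36 in input, 189 ± 48 in Ψ-IP and 145 ± 66 in flow-through (SD, n = 3), and was called in no comparison. Its 29-nt partner stood at 207 ± 18 CPM in mock-treated libraries and, with the other kit, at 11.03 ± 2.3 in input. The 26-nt locus at chr17:27320311-27320336 (minus strand, outside annotated genes) was higher in Ψ-IP (85.3 ± 8.9 CPM) than in flow-through (24.3 ± 11 CPM, 2.10 ± 0.26), and so was the 27-nt locus at chr17:27334847-27334873 in an intron of Gm10505 (1.78 ± 0.25), which was also higher than input (0.71 ± 0.20). The 27-nt locus at chr10:75856312-75856338 (outside annotated genes) fell from 119 ± 21 CPM in input to 42.7 ± 4.4 in Ψ-IP (-1.44 ± 0.20). The printed locus of Gm10505 at chr17:27342441-27342466 fell from 38.2, 32.5 and 41.4 CPM in input to 14.5, 9.81 and 11.5 in Ψ-IP (-1.61 ± 0.22, SE). The 27-nt locus at chr18:67040192-67040218 had 338 ± 38 CPM in mock-treated libraries and, with the other kit, 9.93 ± 3.7 in input, and was called in no comparison. Another abundant locus, printed above at chr17:27358220-27358245 in Gm49794, was also called in none (143 ± 5.7 CPM in mock-treated, 152 ± 5.5 in CMC-treated, 57.4 ± 2.7 in input, 65.3 ± 4.7 in Ψ-IP and 87.1 ± 7.5 in flow-through libraries). None of the first 6 was called with CMC, and all 6 of these shared their 5′ end with a 29–31-nt locus.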

How the data were processed

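Small RNA libraries of mouse testis were compared in 2 sets: 3 mock-treated against 3 CMC-treated libraries, and 3 Ψ-IP against 3 input and 3 flow-through libraries. The authors trimmed reads with Cutadapt, set tRNA fragments aside, aligned to mm10 with Bowtie2, and intersected reads with repeats and piRNA clusters with bedtools; they deposited raw counts per locus and strand, 1 table per library. How reads that map to several places were counted is not given in the sources used here. The methods state a narrower gel range than the 17 to 40 nt of the labels.

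Tables were joined on locus and strand, and a locus was a member when its length was 25 to 27 nt and no repeat name followed. Loci of any length with more than 20 counts in a set were fitted with edgeR 4.0.16 in R 4.3.3 (quasi-likelihood test, TMM scaling, Benjamini-Hochberg adjusted p under 0.01). The members and lists were chosen with earlier results of these data known. CPM used the TMM-adjusted library size of all loci, and a standard error was the log2 fold change over the square root of its F statistic. Ratios of 25–27-nt to 29–31-nt counts were tested as an interaction at 5′ ends and clusters. Shares were compared with exact two-sided permutation tests over libraries. Scripts were tested on simulated data. Python 3.11.15 with pandas 2.3.3, scipy 1.17.1 and matplotlib 3.10.9 was used otherwise.

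Named loci were the 6 members with the highest mean CPM, and in each comparison the 4 largest rises and 4 largest falls among called members with an average of at least 100 counts and the same direction in all 9 pairs of libraries. Named 5′ ends were drawn from the 3 largest rises and falls of the ratio among those called with an average of at least 100 counts in each class. Named clusters were drawn from the 3 with the most counts, the 3 highest and 3 lowest shares at an average of at least 1000 counts, and the 3 largest rises and falls among those called. Loci printed with a sequence were the most changed or most abundant with one. Sites in introns or outside genes have no sequence here, since the genome itself was not used, and GENCODE vM21 transcripts and RefSeq promoters agreed at all 3304348 bases that both gave. Alternatives were DESeq2 1.42.0, its size factors, other count minimums, 1 size per library for both length classes, a replicate block, each locus counted once, a partner in the same library and the leaving out of each library. The single size per library, and all values of the overlaps between the CMC and Ψ-IP calls, were added after seeing the data.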

Additional observations from a re-analysis of the deposited data

How the results depend on the processing

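Replicate numbers were not treated as pairing. Deviations of same-numbered libraries over 28627 members correlated at 0.0752, 0.111 and 0.152 in the CMC set, 0.085, 0.13 and -0.0026 for Ψ-IP and input, and 0.0407, 0.0801 and -0.0388 for Ψ-IP and flow-through, and 4, 4 and 3 of 6 libraries (Ψ-IP against input, Ψ-IP against flow-through, CMC) were closest to their own number. With the replicate block, 679 members were lower with CMC, clusters called were 5 and 0 (higher and lower) for Ψ-IP against flow-through and 2 and 3 with CMC, and the other counts of members, 5′ ends and clusters called moved by at most 1.5 times (Ψ-IP against input, 3362 and 10586 members). Of 571 tested members lower with CMC under the block, 220 were higher and 2 lower than flow-through (38.5% and 0.35%), and 71 were higher and 46 lower than input. No exact sign-flip test of 3 pairs can go below 0.25.

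Of the differences in shares, 4 turned sign. With each locus counted once, the 25–27-nt share differed by 1.28 points between Ψ-IP and flow-through and by -2.68 between flow-through and input. With a partner in the same library, the sharing difference was -2.83 against input and -0.179 against flow-through. The cause was not tested.

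Counts that moved are given as higher and lower where both did. With DESeq2, members called were 2267 and 6996 (Ψ-IP against input) and 1226 higher (CMC), 5′ ends 854 and 820 (input), 435 higher (flow-through) and 284 and 31 (CMC), clusters 21 and 12 (input), 21 lower (flow-through) and 15 and 4 (CMC), and of the members higher with CMC 89 were lower and 21 higher than input and 38 higher than flow-through, and of those lower with CMC 26 were higher than input. With more than 5 counts as the minimum, 2008 members were higher than input, 1725 lower than flow-through and 60 5′ ends lower with CMC. With an average of at least 10 counts, 6292 members were lower than input and 4305 higher than flow-through. With 1 size per library, 5′ ends were 918 and 3355 (input), 723 higher (flow-through) and 62 lower (CMC), and clusters 1 and 76, 0 and 21, and 35 and 0. With DESeq2's size factors, 5′ ends were 637 and 780 (flow-through), and clusters 24 and 12 (input), 16 lower (flow-through) and 17 and 4 (CMC). With at least 1 count in each class, clusters were 11 and 13 (flow-through) and 4 lower (CMC). With an average of at least 100 they were 15 and 13 (input), 2 and 26 (flow-through) and 6 lower (CMC). The cause was not tested.

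Leaving out each library in turn gave, higher then lower, 1650 to 4589 and 6992 to 12630 members against input, 4385 to 6041 and 1577 to 2360 against flow-through and 1039 to 1776 and 113 to 579 with CMC. For 5′ ends it gave 756 to 1901 and 985 to 2375, 208 to 1264 and 220 to 974, and 432 to 592 and 86 to 280. For clusters it gave 37 to 58 and 0 to 3, 7 to 22 and 2 to 5, and 3 to 13 and 4 to 15. The members lower with CMC and higher than flow-through numbered 54 to 236, and those higher with CMC and lower than input 86 to 179. The 25–27-nt share differed by -1.29 to -0.802 (input), -1.69 to -1.14 (flow-through), 0.0812 to 0.628 (flow-through against input) and 1.23 to 1.74 (CMC), and the sharing share by 0.0857 to 0.25, 0.424 to 0.588, -0.401 to -0.278 and -0.112 to -0.0674. Of the values of named loci, 5′ ends and clusters under an alternative, 695 kept direction and call, 54 lost the call and 0 changed sign. This tally left out the 3 clusters with the most counts, whose log2 ratio change in Ψ-IP against input turned sign with 1 size per library. The change went from 0.283 to -0.118 at chr17:27269742-27371971, 0.188 to -0.213 at chr9:67687024-67773986 and 0.198 to -0.202 at chr2:92515043-92616945.

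Low counts limit many members: 531195 had 1 count, and at loci averaging under 10 counts 0.822% were called with CMC.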

Other observations

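Loci of 25 to 27 nt inside annotated repeats were not members. Their share of the counts inside repeats was lower in Ψ-IP than in input by 1.5 percentage points and than in flow-through by 1.1, and higher with CMC by 1.42.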
